A study of Mus musculus with 11 samples.

Results

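The 10 genes described here, Wfs1, Man1a, Lypd1, Neurod6, Spink8, Fibcd1, Mpped1, Pou3f1, Bok and Iyd, are genes of the CA1 and CA3 pyramidal cells of the hippocampus. They were taken by gene symbol, and all 10 were present among the 23644 symbols shared by both count tables. All 10 passed the filter on low counts in both. These genes and the lists set beside them were chosen with earlier results of these data known. Counts given below beside the share over all genes are therefore a description and not independent support. RNA-seq was performed on hippocampus of C57BL/6N mice at P32, an age that the labels give as adult, in 2 rounds. The homozygous round compared 2 WT with 2 1b-/- mice by single-end sequencing, and the heterozygous round compared 3 WT with 4 1b+/- mice by paired-end sequencing. Mutants carry 1 or 2 copies of a Cas9-made germline deletion of the conserved noncoding 1b interval of Scn1a, the gene of the sodium channel NaV1.1, so every cell of the tissue carries the allele. The WT mice of the homozygous round were both female and the 1b-/- mice 1 male and 1 female. All mice of the heterozygous round were male except 1b+/- replicate 4.

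Pyramidal cells are the excitatory principal neurons of the hippocampus. Dentate granule cells send mossy fibres to CA3, CA3 sends Schaffer collaterals to CA1, and CA1 is a main output of the hippocampus. Each field has its own set of expressed genes, and Wfs1, Spink8, Fibcd1, Mpped1 and Pou3f1 are widely used to mark CA1, while Bok and Iyd mark CA3. Neurod6 is shared by pyramidal neurons of the hippocampus and neocortex. In bulk tissue, fewer cells of a type and less RNA per cell cannot be told apart.

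Library totals ran from 20667122 to 36145161 counts. Scn1a stood at 116 to 176 CPM, the depth-normalized read count, in WT and 85.7 to 123 in 1b+/- mice of the heterozygous round, and at 131 to 170.3 in WT and 16.2 to 25.9 in 1b-/- mice of the homozygous round, so the targeted gene went with the genotype labels in the homozygous round and overlapped between groups in the heterozygous one. The WT libraries of the homozygous round stood apart from the other 9 in markers of striatum and of dentate granule cells. Their summed level of striatum genes was 3743 to 9070 CPM against 373 to 643 in the other 9 libraries, and their summed level of dentate granule genes was 90.3 to 128 CPM against 232 to 355. The striatum sums are over the 13 genes that both tables hold, none of which was at 0 throughout a group. These 2 libraries are the only controls of the 1b-/- mice within their round. Levels below are CPM scaled by TMM, a correction for library composition, over all 11 libraries, and fold changes come from the fit within a round.

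The promoters of these genes were unlike one another in base composition. RefSeq promoter windows on GRCm38.p6, which run from 250 bases before to 50 bases after a start, were found for 8 of the 10 genes, with 11 windows in all, and there was no entry for Spink8 and Pou3f1. Those of Iyd, Fibcd1 and Neurod6 are shown because these genes rose in 1b-/- mice, and that of Wfs1 because it holds the same E-box as Iyd. Capitals mark matches to CAGATG, an E-box bound by NeuroD factors, or its reverse complement CATCTG, and to the TATA box TATAAA. The windows are chr10:3540024-3540323 on the plus strand for Iyd, chr2:31845956-31846255 on the minus strand for Fibcd1, chr6:55681214-55681513 on the minus strand for Neurod6 and chr5:36988933-36989232 on the minus strand for Wfs1, each printed 5′ to 3′ along the gene.
Iyd: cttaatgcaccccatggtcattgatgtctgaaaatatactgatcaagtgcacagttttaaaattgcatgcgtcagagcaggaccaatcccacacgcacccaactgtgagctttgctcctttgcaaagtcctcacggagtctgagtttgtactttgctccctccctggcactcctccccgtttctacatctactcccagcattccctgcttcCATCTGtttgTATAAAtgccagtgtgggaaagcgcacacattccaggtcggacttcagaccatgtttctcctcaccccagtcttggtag
Fibcd1: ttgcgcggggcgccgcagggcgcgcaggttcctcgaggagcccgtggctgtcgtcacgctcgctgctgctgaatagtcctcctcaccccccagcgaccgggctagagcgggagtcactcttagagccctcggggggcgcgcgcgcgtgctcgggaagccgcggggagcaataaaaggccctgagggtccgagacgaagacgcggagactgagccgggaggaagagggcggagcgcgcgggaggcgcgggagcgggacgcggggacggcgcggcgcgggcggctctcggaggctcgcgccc
Neurod6: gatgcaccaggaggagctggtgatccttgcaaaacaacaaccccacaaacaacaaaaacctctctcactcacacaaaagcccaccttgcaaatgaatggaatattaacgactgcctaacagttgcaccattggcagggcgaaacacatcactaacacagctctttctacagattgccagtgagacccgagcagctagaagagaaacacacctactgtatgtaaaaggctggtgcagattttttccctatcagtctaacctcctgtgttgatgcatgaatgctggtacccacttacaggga
Wfs1: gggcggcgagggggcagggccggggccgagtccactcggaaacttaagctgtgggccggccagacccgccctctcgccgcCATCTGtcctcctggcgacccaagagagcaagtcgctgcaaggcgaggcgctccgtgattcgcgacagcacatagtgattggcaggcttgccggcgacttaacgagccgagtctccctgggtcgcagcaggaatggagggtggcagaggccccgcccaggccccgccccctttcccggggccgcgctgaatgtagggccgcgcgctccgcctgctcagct

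The median GC content of the 11 windows was 59.0%, against 52.67% over all 32817 RefSeq promoters, and they ranged from 46.3% in Neurod6 to 89.3% in 1 of the Mpped1 windows. Fibcd1 held 46 CpG dinucleotides at 74.3% GC and Wfs1 30 at 70.0% GC, while Iyd held 6 at 49.0% and Neurod6 3 at 46.3%. Searched on both strands, the E-box occurred in 2 of the 11 windows, those of Iyd and Wfs1, and in 17.2% of all promoters. TATAAA occurred in 1 window, that of Iyd, 4 bases after the E-box in the printed sequence, and in 13.6% of all promoters. The GC box GGGCGG, which can overlap itself in GC-rich runs, occurred in 8 of 11 windows and 35.6% of all promoters, and the POU factor octamer ATGCAAAT in none of the 11 and 1.74% of all. Genes that rose in 1b-/- mice were thus found with both GC-poor and GC-rich windows.

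On the mm9 build used for the counts, the GENCODE M1 annotation places Spink8 at chr9:109714794-109729147 on the plus strand, Fibcd1 at chr2:31668810-31701525 on the minus strand, Iyd at chr10:6791664-6806301 on the minus strand and Neurod6 at chr6:55627812-55631257 on the minus strand. Wfs1 lies on chromosome 5, Man1a on 10, Lypd1 and Bok on 1, Mpped1 on 15 and Pou3f1 on 4. Fibcd1 shares chromosome 2 with Scn1a. Counts were summed over whole genes, so no single exon or UTR is resolved. Per kilobase of annotated exon, in WT mice of the heterozygous round, Neurod6 had the highest level at 60.8 ± 1.91 CPM per kb (SD, n = 3). Mpped1 at 47.8 ± 6.22 and Wfs1 at 46.9 ± 0.641 followed and did not differ beyond their spread, and with the longest transcript as the length Mpped1 stood at 62.6, above Neurod6. Fibcd1 at 26.1 ± 4.97, Bok at 18.2 ± 3.61, Pou3f1 at 13.3 ± 0.800, Spink8 at 8.95 ± 1.38 and Man1a at 6.77 ± 0.377 formed the middle of the order, and Man1a stood at 11.95 with its longest transcript. Lypd1 at 4.68 ± 1.18 and Iyd at 2.14 ± 0.505 were the lowest per kilobase.

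The first comparison, 1b+/- against WT mice, asked what loss of 1 copy of 1b does to the hippocampal transcriptome. None of the 10 genes was called at an adjusted p under 0.05 by edgeR's quasi-likelihood test, and 0 of all 14630 genes tested were, a share of 0%. At an unadjusted p under 0.05 there were 5 of the 10 genes, Man1a, Neurod6, Mpped1 and Pou3f1 with higher and Lypd1 with lower values in 1b+/- mice, where 11.3% of all genes tested had such a p. The likelihood ratio test and DESeq2 called 1.31% and 1.67% of all genes and 4 of the 10, Man1a, Lypd1, Neurod6 and Pou3f1. Fold changes were small, with a median log2 value of 0.21 over the 10 genes against 0.00 over all genes, and 9 of 10 were above 0. Other field markers differed in direction in the same comparison. Other CA1 genes had a median of -0.15 (4 of 6 lower) and other CA3 genes -0.05 (5 of 7 lower). CA2 genes had -0.19 (5 of 6 lower), pan-pyramidal genes 0.04 (6 of 8 higher) and dentate granule genes 0.23 (7 of 8 higher). Markers of other cells differed in the same libraries: of 12 striatum genes tested, 10 had lower values in 1b+/- mice, with 7 at an unadjusted p under 0.05 and a median of -0.43, and of 8 GABAergic interneuron genes 7 had lower values, with 6 at such a p and a median of -0.26. None of these was called. Summed levels were 416 to 643 CPM in WT and 373 to 424 CPM in 1b+/- mice for striatum genes, and 788 to 914 CPM and 699 to 766 CPM for interneuron genes, and their part in the values of the 10 genes was not tested. The groups did not overlap for 5 of the 10 genes, against 10.9% of all genes. Man1a, Neurod6, Pou3f1 and Iyd had higher and Lypd1 lower values in 1b+/- mice. The Iyd groups all but touched, with the lowest 1b+/- mouse at 4.08 CPM and the highest WT mouse at 4.06 CPM.

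Lypd1, a GPI-anchored Ly6 family protein that binds nicotinic acetylcholine receptors, had the largest difference of the 10 in this comparison and the only negative one. Its level was 23.5, 39.0 and 36.3 CPM in the WT mice and 19.1, 21.3, 17.1 and 17.8 CPM in the 1b+/- mice. All 4 mutants lay below the lowest WT mouse, and WT replicate 1 lay closer to the mutants than to the other two WT mice. The log2 fold change was -0.80 ± 0.16 (SE) with an adjusted p of 0.115 by edgeR's quasi-likelihood test. The likelihood ratio test and DESeq2 gave adjusted p-values of 4.2e-04 and 1.1e-04, and leaving out WT replicate 1 gave -1.001 with an adjusted p of 0.00243 by the quasi-likelihood test, in a fit that called 2.89% of all genes against 0% with this library.

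Man1a, a Golgi mannosidase that trims N-glycans, had the smallest spread of the 10 genes among 1b+/- mice, a coefficient of variation of 1.65%. It stood at 65.3, 59.0 and 59.9 CPM in WT and at 71.0, 72.9, 73.3 and 73.6 CPM in 1b+/- mice. The groups did not overlap, but the WT mice varied more, with a coefficient of variation of 5.60%. Their range, 59.0 to 65.3 CPM, was wider than the gap between the groups. The log2 fold change was 0.24 ± 0.05 with an adjusted p of 0.103 by edgeR. Without WT replicate 1 the adjusted p by edgeR was 0.0112, in a fit that called 2.89% of all genes against 0% with this library. Among all genes tested it ranked 72 by p-value.

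The pair of transcription factors had the same direction. Neurod6, a bHLH factor of pyramidal neurons, stood at 126, 133 and 133 CPM in WT and at 187, 161, 159.9 and 148 CPM in 1b+/- mice. Pou3f1, a POU domain factor also known as Oct6, stood at 39.0, 42.7 and 38.2 CPM in WT and at 63.4, 55.3, 47.0 and 48.8 CPM in 1b+/- mice. Neither gene's groups overlapped. The log2 fold changes were 0.33 ± 0.07 for Neurod6 and 0.42 ± 0.10 for Pou3f1, with adjusted p-values of 0.157 and 0.175 by edgeR's quasi-likelihood test and of 0.00337 and 0.00676 by DESeq2.

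Of the other 6 genes, Mpped1 alone had an unadjusted p under 0.05 by edgeR. Iyd alone had groups that did not overlap, though they all but touched. Spink8 at 0.09 ± 0.13 and Fibcd1 at 0.05 ± 0.11 had the log2 fold changes nearest to 0, and both turned negative, at -0.039 and -0.069, without WT replicate 1. Mpped1 at 0.20 ± 0.09, Bok at 0.21 ± 0.12, Wfs1 at 0.16 ± 0.10 and Iyd at 0.31 ± 0.17 were positive, with adjusted p-values between 0.432 and 0.593 by edgeR. Wfs1 ranged from 149.8 to 214 CPM in the mutants against 164 to 169 in WT mice, and its lowest value came from the female mutant.

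**Figure D1:**
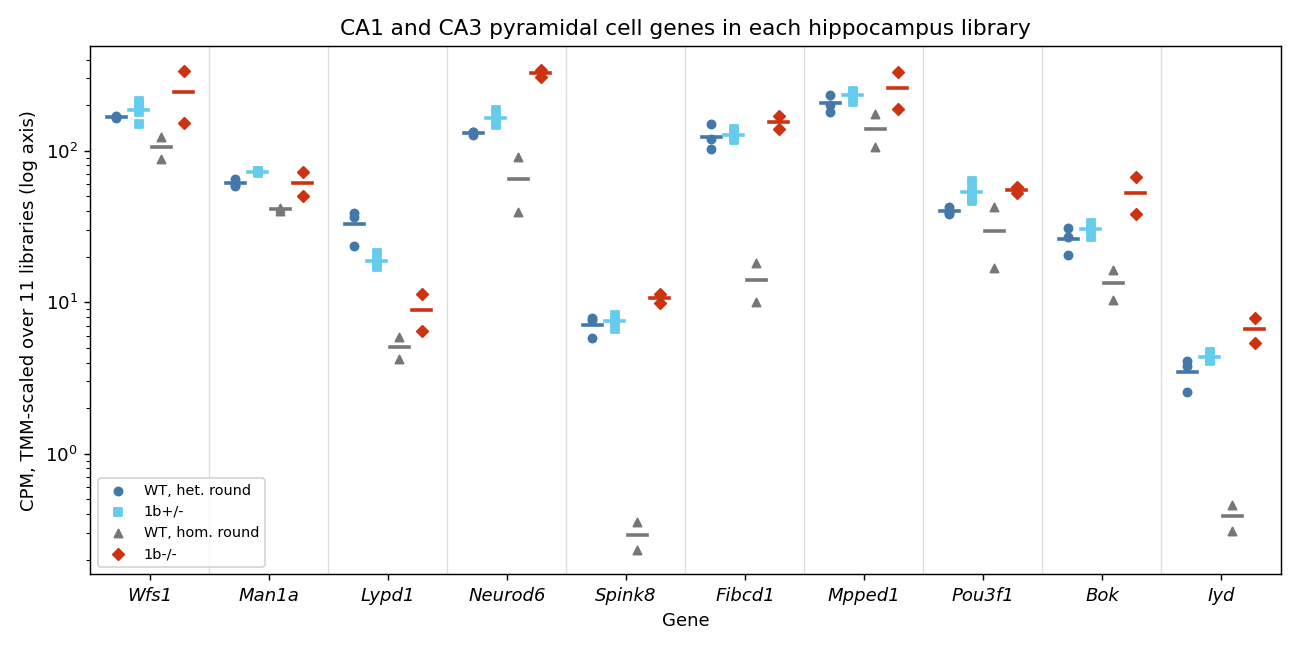
Level of each of the 10 genes in each of the 11 libraries, as CPM scaled by TMM over all libraries on a log axis, with points for libraries and short lines for group means. The WT libraries of the homozygous round had the lowest group mean for all 10 genes, and for Spink8 and Iyd they lay below 0.5 CPM while every other library lay above 2.5 CPM.

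The second comparison, 1b-/- against the WT mice of the homozygous round, addressed loss of both copies. Neurod6, Spink8, Fibcd1 and Iyd rose in 1b-/- mice at an adjusted p under 0.05 by edgeR's quasi-likelihood test, 4 of the 10 genes, where 3.58% of 14838 genes tested were called and 2.06% were called with higher values in the mutant. All 10 genes had higher values in both mutants than in both WT mice, where 59.7% of all genes did not overlap between these groups of 2 and 29.5% did so with higher values in the mutant. A log2 fold change of at least 1 was measured for 6 of the 10 genes and for 5.7% of all genes. Spink8 and Iyd, which had the largest fold changes, were below 1 CPM in both WT mice. In this round they passed the filter of 1 CPM only through the 1b-/- libraries, the group where they were high. The median log2 fold change was 1.60 against 0.00 over all genes. The 14 striatum genes had lower values in 1b-/- mice in 14 of 14 cases and 11 were called, in the same libraries, and the part of the striatum signal of the WT mice in the rise of the pyramidal genes was not tested.

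Spink8, a Kazal-type serine peptidase inhibitor of CA1, changed most. It stood at 0.355 and 0.231 CPM in the WT mice, from 13 reads in all, and at 9.94 and 11.3 CPM in the 1b-/- mice, from 727 reads. The log2 fold change was 5.17 ± 0.33 with an adjusted p of 0.0190 by edgeR, and its rank by p-value was 10. WT mice from the heterozygous round had 5.85, 7.85 and 7.61 CPM, so the WT libraries of the homozygous round stood apart from all other libraries for this gene.

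Iyd, the iodotyrosine deiodinase that marks CA3, followed at 0.311 and 0.461 CPM in WT and 5.37 and 7.86 CPM in 1b-/- mice. Its log2 fold change was 4.10 ± 0.42 with an adjusted p of 0.0223 by edgeR, and its WT values rest on 17 reads. Fibcd1, a CA1 marker and a membrane receptor that binds acetylated compounds through a fibrinogen-like domain, stood at 18.2 and 10.01 CPM in WT and at 140.2 and 169 CPM in 1b-/- mice. These values rest on 628 and 10567 reads, and the log2 fold change was 3.46 ± 0.32 with an adjusted p of 0.0207 by edgeR. The CA1 genes Spink8 and Fibcd1 were thus among the called ones, and of the CA3 genes Bok and Iyd only Iyd was. Spink8 and Iyd passed the filter only through the 1b-/- libraries, so the call for CA3 rests on a gene admitted that way.

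Neurod6 stood at 39.7 and 91.2 CPM in the WT mice and at 307 and 342 CPM in the 1b-/- mice. The 2 WT mice differed from each other by a ratio of 2.30, while the mutants lay within a ratio of 1.11. The log2 fold change was 2.32 ± 0.40 with an adjusted p of 0.0499 by edgeR, just inside the threshold, and with edgeR's own expression filter in place of 1 CPM it was 0.0502. On omission of single libraries the log2 fold change ran from 1.85 without WT replicate 1 to 3.04 without WT replicate 2. Bok, a BCL-2 family protein that marks CA3, lay just outside at 0.0542, with 10.4 and 16.4 CPM in WT and 38.1 and 67.6 CPM in 1b-/- mice and a log2 fold change of 1.99 ± 0.36. Its adjusted p by edgeR was 0.00685 without 1b-/- replicate 1 and 0.0377 without 1b-/- replicate 2, where 4.69% and 3.11% of all genes were called, but 0.139 without WT replicate 1 and 0.107 without WT replicate 2. The likelihood ratio test called it too, with 12.3% of all genes.

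The remaining 5 genes had positive values that did not pass the test. Wfs1, the wolframin gene of the endoplasmic reticulum, stood at 124 and 88.7 CPM in WT and at 339 and 153 CPM in 1b-/- mice. Mpped1, a metallophosphoesterase domain protein, stood at 106 and 174 CPM in WT and at 330.3 and 188 CPM in 1b-/- mice. In both genes the second mutant lay much closer to the WT mice than the first, and the log2 fold changes were 1.21 ± 0.40 and 0.90 ± 0.35 with adjusted p-values of 0.140 and 0.184 by edgeR. Pou3f1 had 42.3 and 16.8 CPM in WT and 52.3 and 57.9 CPM in 1b-/- mice, with a log2 fold change of 0.90 ± 0.42. Its first WT library lay nearer to the mutants than to the other WT library. Lypd1 had 5.90 and 4.25 CPM in WT and 11.4 and 6.49 CPM in 1b-/- mice, and Man1a had 40.3 and 41.6 CPM in WT and 50.2 and 72.7 CPM in 1b-/- mice. Their log2 fold changes were 0.82 ± 0.35 and 0.60 ± 0.21, and the adjusted p-values of Pou3f1, Lypd1 and Man1a were 0.242, 0.210 and 0.154 by edgeR.

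Taking replicate 2 of the 1b-/- mice out raised the log2 fold change of Wfs1 to 1.67. Without replicate 1 of the 1b-/- mice it fell to 0.54. With sex as a covariate it was also 0.54. That is no second check, because this replicate was the only male of its round and alone set the sex term. DESeq2 called Wfs1, Mpped1 and Bok beside the 4 genes in the full data, where it called 14.4% of all genes. With all 11 libraries in 1 fit, which takes the spread from both rounds, 9 of the 10 genes were called, all but Lypd1, and 37.2% of all genes. Single libraries also moved the genes that did not pass. Pou3f1 ran from 0.39 without WT replicate 2 to 1.72 without WT replicate 1, Mpped1 from 0.45 without 1b-/- replicate 1 to 1.30 without WT replicate 2, Lypd1 from 0.37 without 1b-/- replicate 1 to 1.16 without 1b-/- replicate 2, and Man1a from 0.29 without 1b-/- replicate 2 to 0.85 without 1b-/- replicate 1.

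Within the 1b-/- group the genes did not move together. From replicate 1, a male, to replicate 2, a female, the ratio of levels was 0.451 for Wfs1, 0.570 for Mpped1 and 0.571 for Lypd1, while it was 1.77 for Bok, 1.46 for Iyd and 1.45 for Man1a. The CA1 markers were split: Wfs1 and Mpped1 were lower in replicate 2, while Spink8, Fibcd1 and Pou3f1 had ratios of 1.14, 1.21 and 1.11, in the same direction as the CA3 genes Bok and Iyd. Neurod6 had a ratio of 1.11. In the WT mice of the same round, both female, Bok and Iyd had ratios of 1.57 and 1.49 and Wfs1 0.716, but Mpped1 had 1.65.

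**Figure D2:**
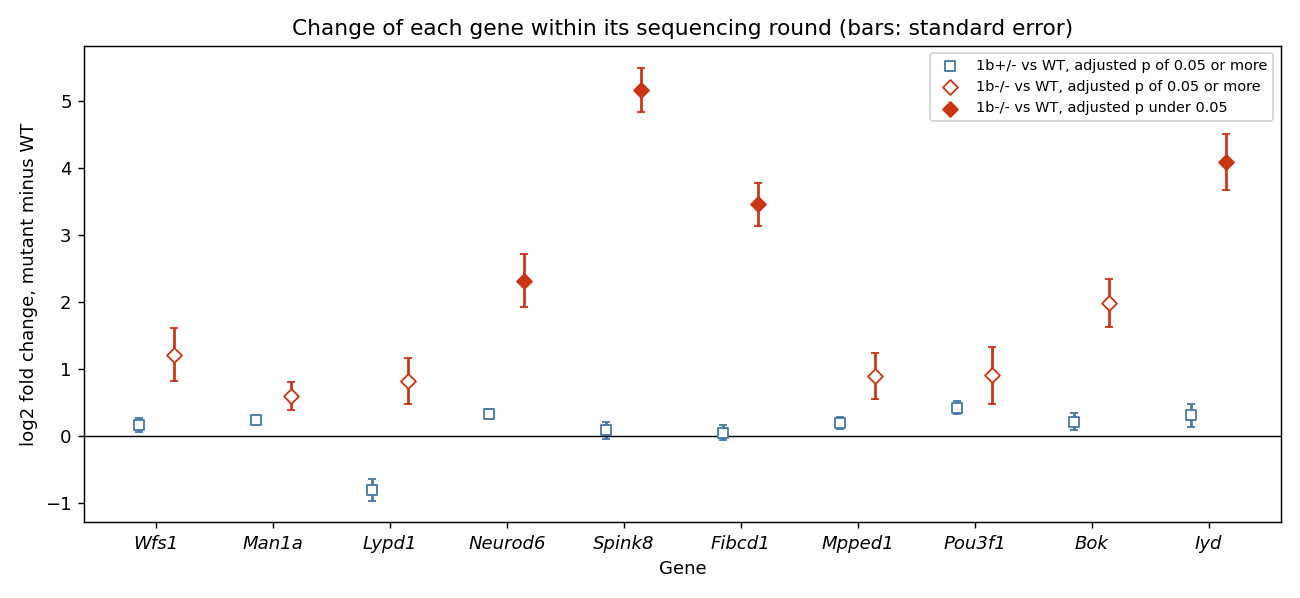
Log2 fold change of each gene, mutant minus WT, within each sequencing round, with standard errors as bars, and filled symbols for an adjusted p under 0.05 by edgeR's quasi-likelihood test. The 1b+/- values lie between -0.80 and 0.42, and the 1b-/- values between 0.60 and 5.17.

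The 4 calls rested on few libraries. With WT replicate 1 of this round left out, 0 of the 10 genes and 0 of all genes were called by edgeR, with 6 of the 10 and 3861 of all genes at an unadjusted p under 0.05, and Neurod6, Spink8, Fibcd1 and Iyd each had an adjusted p of 0.101 at log2 fold changes of 1.85, 5.52, 3.97 and 3.85, with the single WT mouse assumed to vary like the mutants. Without WT replicate 2 there were 3 calls where 1.31% of all genes were called, Iyd having an adjusted p of 0.0635 by edgeR.

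**Figure D3:**
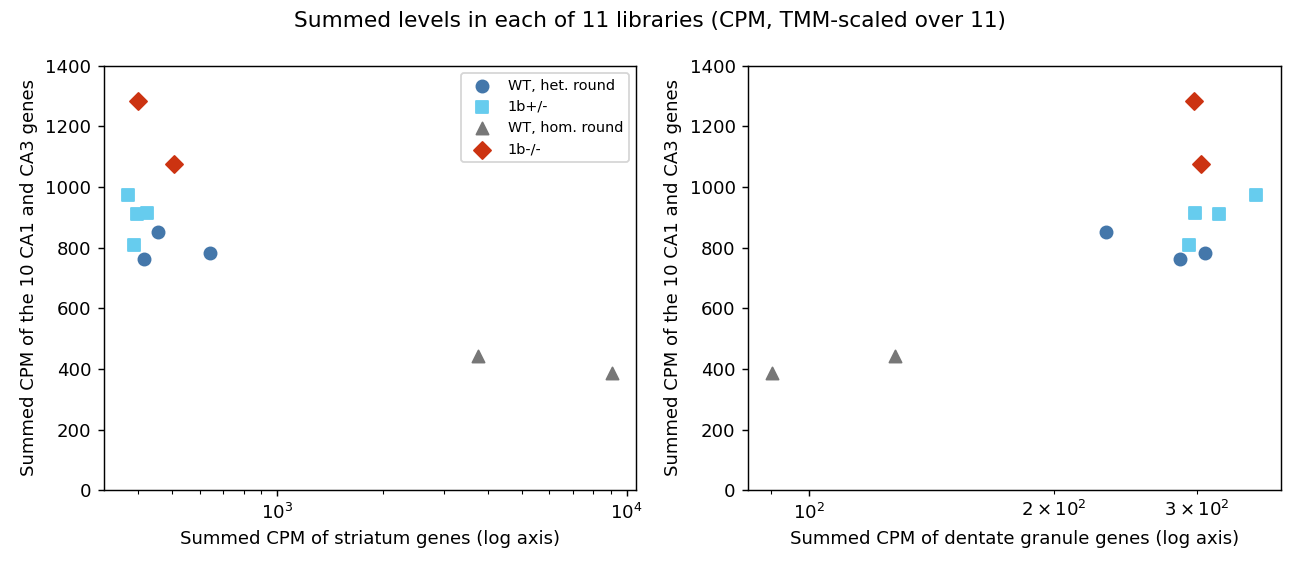
Summed CPM of the 10 CA1 and CA3 genes in each library (linear vertical axis) against the summed CPM of striatum genes (left) and dentate granule genes (right), both on log axes. The WT libraries of the homozygous round lie apart at 387 to 444 CPM for the 10 genes and 3743 to 9070 CPM for striatum genes.

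Set over all 11 libraries, the summed level of the 10 genes was 387 to 444 CPM in WT mice of the homozygous round, 762 to 851 CPM in WT mice of the other round, 807 to 974 CPM in 1b+/- and 1076 to 1284 CPM in 1b-/- mice. The rounds differ in read type, and levels across them carry that difference. For 9 of the 10 genes, all except Pou3f1, both WT libraries of the homozygous round lay below every other library. The mean of the WT mice of the heterozygous round exceeded that of the WT mice of the homozygous round by a ratio of 24.3 for Spink8, 9.0 for Iyd, 8.76 for Fibcd1 and 6.50 for Lypd1, and by 1.35 to 2.0 for the other six genes. The fitted ratios of 1b-/- to WT mice of the homozygous round in the same genes were 35.9, 17.1, 11.01 and 1.77.

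The order of group means was the same for 8 of the 10 genes, with 1b-/- highest, then 1b+/-, then WT of the heterozygous round and then WT of the homozygous round. Both 1b-/- libraries lay above all 9 others for Neurod6, Spink8, Bok and Iyd, and the neighbours 1b+/- and WT of the heterozygous round overlapped for Wfs1, Spink8, Fibcd1, Mpped1 and Bok. The 1b-/- and 1b+/- groups overlapped for Wfs1, Man1a, Mpped1 and Pou3f1. Man1a was highest in 1b+/- mice. Lypd1 ran from WT of the heterozygous round at 32.9 ± 8.31 CPM through 1b+/- at 18.8 ± 1.84 and 1b-/- at 8.92 ± 3.45 to WT of the homozygous round at 5.07 ± 1.17 CPM.

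An additional contrast, chosen after the data had been seen, set the 1b-/- mice against the WT mice of the heterozygous round in a fit of all 11 libraries. Genotype and round cannot be told apart in it, and 52.2% of all genes were called. The median log2 fold change of the 10 genes was then 0.51, and Neurod6, Spink8, Bok and Iyd were called with higher values, at 1.31 ± 0.24, 0.58 ± 0.16, 1.01 ± 0.24 and 0.92 ± 0.23. Fibcd1 stood at 0.32 ± 0.20 with an adjusted p of 0.205 by edgeR. Lypd1 turned to -1.88 ± 0.27, called with lower values, and Man1a stood at 0.00 ± 0.12. The sizes for Spink8, Fibcd1 and Iyd thus depended on which WT libraries served as the reference.

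**Figure D4:**
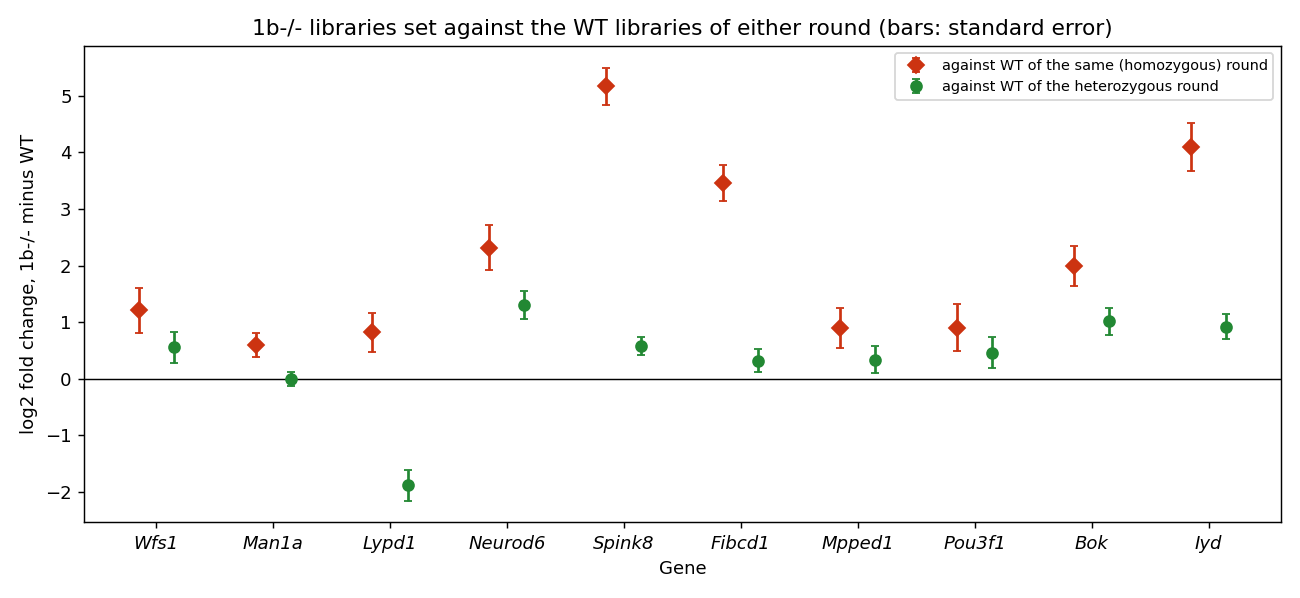
Log2 fold change of each gene in 1b-/- mice against the WT mice of their own round and against those of the heterozygous round, with standard errors as bars. Spink8 moves from 5.17 to 0.58, Fibcd1 from 3.46 to 0.32 and Iyd from 4.10 to 0.92, and Lypd1 turns from 0.82 to -1.88.

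Whether the 2 genotypes differed in their change from WT was tested in 1 fit of all 11 libraries. The change was more positive in 1b-/- than in 1b+/- mice for Spink8, Iyd, Fibcd1, Neurod6, Bok and Lypd1, 6 of the 10 genes, where 27.3% of all genes were called and 14.3% in this direction. The differences on the log2 scale were 5.07 ± 0.29 for Spink8, 3.77 ± 0.38 for Iyd, 3.40 ± 0.30 for Fibcd1, 1.98 ± 0.35 for Neurod6, 1.76 ± 0.35 for Bok and 1.62 ± 0.37 for Lypd1, with adjusted p-values between 1.4e-05 and 0.00956 by edgeR. Wfs1 at 1.04 ± 0.38 had an adjusted p of 0.0633, and Man1a, Mpped1 and Pou3f1 did not pass, with values of 0.34 ± 0.17, 0.69 ± 0.33 and 0.47 ± 0.38. These 4 genes passed on omission of certain single libraries of the homozygous round: Wfs1 without WT replicate 1 (1.31) or 1b-/- replicate 2 (1.51), Pou3f1 without WT replicate 1 (1.28), Mpped1 without WT replicate 2 (1.09) or 1b-/- replicate 2 (1.04), and Man1a without 1b-/- replicate 1 (0.58). In these fits 33.7% of all genes were called without WT replicate 1, 27.6% without WT replicate 2, 26.3% without 1b-/- replicate 1 and 23.6% without 1b-/- replicate 2. Pou3f1 turned to -0.050 without WT replicate 2. This test uses the WT libraries of both rounds. Without any WT library, 1b-/- against 1b+/- gave 5 calls where 53.7% of all genes were called, 4 of them higher (Neurod6 at 0.98, Bok at 0.80, Iyd at 0.61 and Spink8 at 0.50) and Lypd1 lower at -1.07, and Man1a turned to -0.24.

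Other genes of the hippocampal fields were measured as context. Of 6 other CA1 genes, Lefty1, Dcn and Grp, 3 in all, were called in 1b-/- mice, all higher, with a median log2 fold change of 2.25 over the list. Dcn, the proteoglycan decorin, had 2.63 ± 0.16, and Grp, the gastrin-releasing peptide, 2.94 ± 0.21, with adjusted p-values of 0.0190 and 0.0191 by edgeR. In 1b+/- mice 0 of the 6 were called. Nov, a secreted CCN family protein, had -0.20 ± 0.08 there with an adjusted p of 0.406 by edgeR.

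Of 7 other CA3 genes, Grik4 and Cpne4 were called higher and Coch lower in 1b-/- mice, with a median of 0.76. Grik4, a kainate receptor subunit, had a log2 fold change of 2.06 ± 0.21, and Coch, cochlin, went the other way at -3.74 ± 0.23, with adjusted p-values of 0.0223 and 0.0190 by edgeR. Coch stood at a mean of 86.2 CPM, scaled within the round, in the WT mice of the homozygous round against 16.4 CPM in those of the heterozygous round. In 1b+/- mice 0 of the 7 were called, with Coch at -0.71 ± 0.20 and Plagl1, a zinc finger factor, at -0.37 ± 0.18.

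Of 6 CA2 genes, with a median of 1.24 in 1b-/- mice, Rgs14, a regulator of G-protein signalling, was called higher in 1b-/- mice at 1.70 ± 0.28, and Pcp4, a calmodulin-binding peptide also abundant in striatum, was called lower at -2.26 ± 0.29, with adjusted p-values of 0.0469 and 0.0294 by edgeR. In 1b+/- mice 0 of the 6 were called, with Amigo2, an adhesion protein, at -0.29 ± 0.08 and Necab2, a calcium-binding protein, at -0.22 ± 0.08. Of 8 pan-pyramidal genes, with a median of 0.77 in 1b-/- mice, Neurod2, a relative of Neurod6, was the single one called in 1b-/- mice, at 2.21 ± 0.34 with an adjusted p of 0.0385 by edgeR. Zbtb20, a transcriptional repressor expressed in hippocampal pyramidal cells, had 1.91 ± 0.35 in 1b-/- mice with an adjusted p of 0.0550 by edgeR. In 1b+/- mice Zbtb20 had 0.31 ± 0.11 and Hpca, hippocalcin, had 0.18 ± 0.11, and 0 of the 8 were called. At an unadjusted p under 0.05 in 1b+/- mice there were 2 of the CA1, 1 of the CA3, 2 of the CA2 and 1 of the pan-pyramidal genes, and the likelihood ratio test called 0 in each list.

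Beside these, the dentate granule genes had higher values in 1b-/- mice in 7 of 8 cases, with a median of 2.14, and Prox1, C1ql2 and Lct were called. C1ql2, a synaptic complement-related protein, had the largest at 5.37 ± 0.15, and Prox1, the granule cell identity factor, had 1.79 ± 0.14. Of the striatum genes, with a median of -4.39, Ido1, a tryptophan-degrading enzyme, had -6.60 ± 0.54 and Tac1, the substance P precursor, -4.41 ± 0.37, with adjusted p-values of 0.0204 and 0.0207 by edgeR. Oligodendrocyte genes had lower values in 1b-/- mice for 8 of 8 genes, with Ermn called, and higher values in 1b+/- mice for 8 of 8, with 0 called by edgeR and 4 at an unadjusted p under 0.05. Choroid plexus genes ranged from 59.2 to 13271 CPM between the 2 1b-/- libraries and from 52.0 to 3375 CPM between the 2 WT libraries of that round. They ranged from 60.0 to 2719 CPM in 1b+/- mice and from 770 to 1138 CPM in WT mice of the heterozygous round. Neither their part nor that of the oligodendrocyte genes in the values of the 10 genes was tested.

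Among the genes whose pattern over the 11 libraries was most like the mean of the 10, by the root mean square difference of log2(CPM + 1) centred within each round, were Lmo1 at 0.0754, Zmat5 at 0.0767, Syna at 0.0839 and Nell2 at 0.0919, out of 13151 genes compared. Lmo1, a LIM-only transcriptional regulator, stood at 6.23 and 6.87 CPM, scaled within the round, in the WT mice and at 24.2 and 26.3 CPM in the 1b-/- mice of the homozygous round. Its log2 fold change there was 1.95, and 0.08 in 1b+/- mice. These 4 genes had log2 fold changes of 1.63 to 1.95 in 1b-/- and 0.05 to 0.19 in 1b+/- mice. Such values follow from the choice of these genes by closeness to the mean in the same libraries. None of the 10 genes lay as close to their own mean, the nearest being Iyd at 0.272 and Bok at 0.274. The 10 were not chosen for closeness, so this contrast also follows from the choice.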

How the data were processed

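RNA was isolated from hippocampus, and stranded TruSeq libraries were sequenced. The authors deposited whole-number counts, 1 per gene and library. Per the labels, STAR 2.7.2 was used with mm9 and featureCounts for counting, and no sign of normalization or filtering was found in the tables. The annotation and strand setting used for counting are not given in the sources used here, so overlapping genes are uncertain. All 11 libraries and all columns were used, grouped by genotype label and round. Spreadsheet dates had replaced 27 symbols in each table (0.300% to 0.372% of counts).

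The quasi-likelihood test of edgeR 4.0.16 in R 4.3.3 (TMM, glmQLFit, glmQLFTest) was run on genes reaching 1 CPM in at least 1 library, with genotype as the only term, mutants against WT within a round, and Benjamini-Hochberg adjustment over all genes tested, at 0.05. The difference between both changes was tested over all 11 libraries on shared symbols. SE is the absolute log2 fold change over the square root of F. Coefficients of biological variation were 9.13% (heterozygous round) and 22.9% (homozygous round). Replicates are given only as separate samples, so p-values measure the spread between these samples, and libraries of a group differed beyond sampling noise (chi-square per gene 5.95 to 78.5). The code was tested on simulated counts.

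The 10 genes and all lists were chosen with earlier results of these data known. Named were the 10 genes, Scn1a, the 2 genes with the smallest p in each comparison from the other CA1, CA3, CA2 and pan-pyramidal lists, the 2 with the smallest p in 1b-/- mice from the striatum and dentate lists, and the 5 genes most like the mean of the 10. Some results that this rule selects are not reported here. Lefty1, Cpne4, Lct, Ermn and the interneuron, oligodendrocyte, choroid plexus and thalamus values were added after they were seen. Alternatives were edgeR's likelihood ratio test, DESeq2 1.42.0, other scaling factors (RLE, upper quartile), other filters (filterByExpr, none), a sex term, a joint fit of the 11 libraries, omission of single libraries, and 2 contrasts across rounds chosen after the data had been seen. Lengths came from GENCODE M1 on mm9, where 2 records share the symbol Pou3f1 and were merged.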

Additional observations from a re-analysis of the deposited data

Results flagged for a closer look

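In the 1b+/- group of 4, the only group large enough to look for a library far from the others, Mpped1 in replicate 4 stood at 210.4 CPM, with the other 3 libraries at 241 to 246. Chance sets about 1 such value among 20 groups, and 10 genes were examined. This library was the only female of its round. Its thalamus genes summed to 346 CPM, against 124 to 214 CPM in the other 1b+/- mice. The part of neither in the Mpped1 value was tested.

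The change from WT differed between 1b-/- and 1b+/- mice by the test of the difference itself for 6 genes. On the log2 scale the difference was 1.62 for Lypd1, 1.98 for Neurod6, 5.07 for Spink8, 3.40 for Fibcd1, 1.76 for Bok and 3.77 for Iyd. These values rest on the WT libraries of the homozygous round, whose striatum genes summed to 3743 to 9070 CPM, and the part of that signal in these differences was not tested.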

How the results depend on the processing

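The number of the 10 genes called in 1b+/- mice rose from 0 to 4 with the likelihood ratio test and to 4 with DESeq2 (1.31% and 1.67% of all genes), both times Man1a, Lypd1, Neurod6 and Pou3f1, and ran from 0 to 2 on omission of single libraries, the 2 without WT replicate 1 being Man1a and Lypd1 (2.89% of all genes). In 1b-/- mice the number was 7 instead of 4 with DESeq2 (14.4% of all genes), 9 with all 11 libraries in 1 fit (37.2%), and 0 to 6 on omission of single libraries. The 0 came without WT replicate 1 and the 6 without 1b-/- replicate 2, where 0% and 3.11% of all genes were called, against 3.58% in full. The number called in the test of the difference was 5 to 7 in the alternatives that kept all libraries, against 6 in the main fit. That main fit called 27.3% of all genes. The 5 came from 1b-/- against 1b+/- mice with no WT library, which is not a test of the difference. It called 53.7% of all genes, and 4 of the 5 were higher and Lypd1 lower.

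The direction of Spink8 and Fibcd1 in 1b+/- mice was not stable with libraries left out, with log2 fold changes from -0.039 to 0.17 and from -0.069 to 0.20, and the difference for Pou3f1 ran from -0.050 to 1.28. In the contrasts across rounds, Lypd1 turned to -1.88 against WT mice of the heterozygous round and to -1.07 against 1b+/- mice, and Man1a to -0.24 against 1b+/- mice. No other direction of the 10 genes changed in any of the 3 comparisons. The cause was not tested. No paired analysis was possible because the labels number no replicates across groups. Library size was not the limit for most of the 10 genes: Spink8 with 13 reads and Iyd with 17 in the WT mice of the homozygous round had the fewest, and groups of 2 mice limit every homozygous value.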
